A study of Rattus norvegicus with 12 samples.

Results

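The Reg family of secreted lectins was described in RNA-seq libraries of rat pancreatic islets from control and growth-restricted offspring at 2 ages. Members were the rows of the deposited count table that carry 1 of the 5 gene symbols Reg1a, Reg3a, Reg3b, Reg3g and Reg4, 5 of 25888 symbols in all. The transcript of highest mean count over the 12 libraries was to stand for a symbol, but each member had a single transcript. That mean does not separate the groups, and its values were 44884 counts for Reg1a, 3523 for Reg3a, 2195 for Reg3b, 94.6 for Reg3g and 0.333 for Reg4. Decreases of Reg1a and Reg3a in growth-restricted islets at 10 weeks were known when the family was chosen, so their values in that comparison are not independent support. The same 10-week libraries also enter the age comparisons and the difference between ages, so values there are not independent of that choice either.

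All animals were Sprague Dawley rats, with 3 libraries in each of 4 groups: control and intrauterine growth restriction (IUGR), each at 2 and 10 weeks of age. In the IUGR groups, both uterine arteries of the dam had been ligated on embryonic day 18. Control litters had been reduced to 8 pups, and all dams and offspring ate standard chow freely. Whether control dams had a sham operation, the sex of the offspring, and whether a library came from 1 animal or from pooled animals are not stated in the labels, so p-values measure the spread between these libraries only. Islets were freed by collagenase perfused through the duct and purified on a Histopaque gradient, which can leave acinar cells beside the islets. RNA had integrity numbers above 7, and libraries were stranded total RNA depleted of ribosomal RNA.

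Reg proteins are small secreted proteins built around a C-type lectin fold. Reg1a, also called lithostathine or pancreatic stone protein, is made mainly by acinar cells and has been studied as a growth factor for islets. Reg3a, Reg3b and Reg3g are the pancreatitis-associated proteins, which acinar cells secrete in large amounts during acute pancreatitis. In the gut the same Reg3 proteins are antibacterial lectins induced through interleukin receptors and the transcription factor Stat3. Reg4 is known mainly from intestinal enteroendocrine cells. The glycosyltransferase Extl3 has been described as a receptor for Reg proteins.

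In the RefSeq annotation of the rat assembly GRCr8, the pancreatic members lie side by side on chromosome 4, in the order Reg3b, a Reg3b pseudogene, Reg3a, Reg1a, a non-coding gene and Reg3g, while Reg4 lies on chromosome 2. The 250 bases before the start site of each of the 4 detected members are shown. Of these neighbours, Reg1a, Reg3a and Reg3b moved together in the libraries, while Reg3g followed Reg1a less closely (r = 0.583). The sequences are from RefSeq, 5′ to 3′ on the strand of the gene. Capitals mark TATAAA, the letters of a TATA box, TTCNNNGAA, the core of a Stat site, and CACCTG, the E-box letters bound by the acinar factor Ptf1a. For Reg3a the table holds 2 start sites, and the one farther upstream was used.
Reg1a: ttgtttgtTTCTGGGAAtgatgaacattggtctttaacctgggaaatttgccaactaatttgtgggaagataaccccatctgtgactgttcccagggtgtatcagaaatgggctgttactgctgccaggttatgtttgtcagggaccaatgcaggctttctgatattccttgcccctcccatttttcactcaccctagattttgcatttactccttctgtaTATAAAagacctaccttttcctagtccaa
Reg3a: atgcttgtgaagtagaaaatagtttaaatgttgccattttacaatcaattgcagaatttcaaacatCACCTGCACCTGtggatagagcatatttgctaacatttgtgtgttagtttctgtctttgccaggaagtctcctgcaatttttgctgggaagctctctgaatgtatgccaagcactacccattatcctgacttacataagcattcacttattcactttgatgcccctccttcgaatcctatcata
Reg3b: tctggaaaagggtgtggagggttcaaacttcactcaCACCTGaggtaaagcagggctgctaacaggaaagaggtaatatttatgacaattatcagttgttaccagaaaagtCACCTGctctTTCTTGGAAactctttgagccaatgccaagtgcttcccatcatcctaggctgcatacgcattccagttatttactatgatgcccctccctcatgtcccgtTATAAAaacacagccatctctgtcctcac
Reg3g: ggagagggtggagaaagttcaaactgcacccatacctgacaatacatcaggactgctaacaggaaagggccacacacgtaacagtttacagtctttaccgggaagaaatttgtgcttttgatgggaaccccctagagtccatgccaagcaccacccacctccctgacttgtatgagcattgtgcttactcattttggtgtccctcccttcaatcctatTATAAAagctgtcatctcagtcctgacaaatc
Reg1a is at chr4:112450216-112450465 and Reg3a at chr4:112430147-112430396, both on the plus strand. Reg3b is at chr4:112419526-112419775 on the plus strand, and Reg3g is at chr4:112484739-112484988 on the minus strand. TATAAA was found 29 bases before the start of Reg1a and of Reg3b and 32 bases before that of Reg3g. TTCNNNGAA was found 242 bases before the Reg1a start and 129 bases before the Reg3b start. CACCTG was found at 184 and 178 bases before the Reg3a start, directly following each other, and at 214 and 139 bases before the Reg3b start. Both strands were searched, and none of these matches overlapped another motif. A search for TTTCCC, the other part of the Ptf1 site, gave 1 match, on the reverse strand 210 bases before the Reg1a start. Over 27456 rat promoters of the same length, 13.1% held TATAAA, 7.50% TTCNNNGAA, 15.7% CACCTG and 22.1% TTTCCC, against 3, 2, 2 and 1 of the 4 members. The Reg3b and Reg3g promoters were identical at 65.4% of aligned positions, against 51.6% to 56.4% for the other pairs of these members and 49.1% to 51.9% for pairs with Reg4. These matches describe letters, and binding was not measured.

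The libraries held between 30396759 and 64201627 counts. Levels are given as CPM, counts per 1000000 counts of a library after TMM scaling, which corrects each library's total for its make-up. The TMM factors ran from 0.440 in 10-week control replicate 3 to 1.40 in 2-week IUGR replicate 2. All 10 endocrine markers used to check the islet label, the hormone genes among them, were detected in every library, with summed levels of at least 34345 CPM. Acinar enzyme transcripts, a list of 32 genes with no Reg gene of which 29 were found and 28 tested, took 28.9% ± 11.6 of counts (SD, n = 3) in 2-week controls and 6.70% ± 2.52 in 2-week IUGR islets. They took 34.6% ± 18.0 in 10-week controls and 1.40% ± 0.857 in 10-week IUGR islets. Among 10-week controls the acinar share was 13.9% in replicate 2, 43.0% in replicate 1 and 46.9% in replicate 3. In bulk RNA, fewer cells of a type and less RNA per cell cannot be told apart. Levels are compared between libraries for 1 gene and not between genes, since transcript lengths were not used here.

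Reg1a, Reg3a and Reg3b ran far lower in IUGR than in control islets at 10 weeks, and Reg3g ran lower with groups that nearly met. All 4 members ran far higher in control islets at 10 than at 2 weeks. At 2 weeks none of them passed the test between IUGR and control, and none passed it for age in IUGR islets. The 4 members also shared a wide spread between libraries of 1 group.

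Reg1a stood at 557, 277 and 224 CPM in the 2-week control replicates 1, 2 and 3, and at 270, 54.0 and 68.3 CPM in the 2-week IUGR replicates. At 10 weeks it stood at 1370, 770.3 and 14032 CPM in controls and at 54.3, 101 and 10.4 CPM in IUGR islets. The ranges of the 2-week groups overlapped through IUGR replicate 1, whereas each 10-week control was above each 10-week IUGR library and above each 2-week control. Control replicate 3 at 10 weeks held 384440 Reg1a counts, against 43241 and 32772 in the other 10-week controls.

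Reg3a stood at 7.93, 1.60 and 3.59 CPM in 2-week controls and at 3.43, 0.590 and 0.601 CPM in 2-week IUGR islets. Its 10-week values were 48.8, 219.9 and 1096 CPM in controls and 4.62, 7.69 and 0.247 CPM in IUGR islets. The 2-week groups again overlapped and the 10-week groups did not. IUGR replicate 3 at 10 weeks was the lowest of all 12 libraries, with 10 counts, and was also the lowest library for Reg1a and Reg3b.

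Reg3b stood at 21.0, 4.34 and 5.98 CPM in 2-week controls and at 8.13, 0.978 and 1.65 CPM in 2-week IUGR islets. At 10 weeks its level was 47.9, 181.7 and 533 CPM in controls and 3.26, 8.59 and 0.494 CPM in IUGR islets. The 2-week groups overlapped and the 10-week groups did not. Control replicate 1 was the lowest 10-week control for Reg3a and Reg3b, while replicate 2 was the lowest for Reg1a. The order for Reg1a depended on scaling: in CPM of the plain library total replicate 1 was lower, at 674 against 827 in replicate 2.

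Reg3g, the member with the fewest counts after Reg4, stood at 0.114, 0.0391 and 0.275 CPM in 2-week controls, from 4, 2 and 14 counts, and at 0.354, 0.109 and 0.1002 CPM in 2-week IUGR islets, from 25, 7 and 6 counts. At 10 weeks it stood at 1.01, 20.4 and 4.53 CPM in controls, from 32, 866 and 124 counts, and at 0.863, 0.473 and 0.124 CPM in IUGR islets, from 31, 19 and 5 counts. Its highest library was 10-week control replicate 2, the 10-week control with the smallest acinar share. The gap between control replicate 1 and IUGR replicate 1 at 10 weeks depended on scaling: in CPM of the plain library total the values were 0.498 and 1.02, so that the groups overlapped. Reg3g passed the minimum used for testing in 7 of 12 libraries, all 3 of the 10-week controls among them, and Reg1a, Reg3a and Reg3b passed it in all 12.

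Reg4 gave 4 counts in all, 1 in each 10-week control and 1 in 10-week IUGR replicate 2, and was not tested. In the 8 libraries without a count, the limit of 3 counts that a count of 0 allows lay between 0.0425 and 0.0858 CPM, which covers counting error only.

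**Figure D1:**
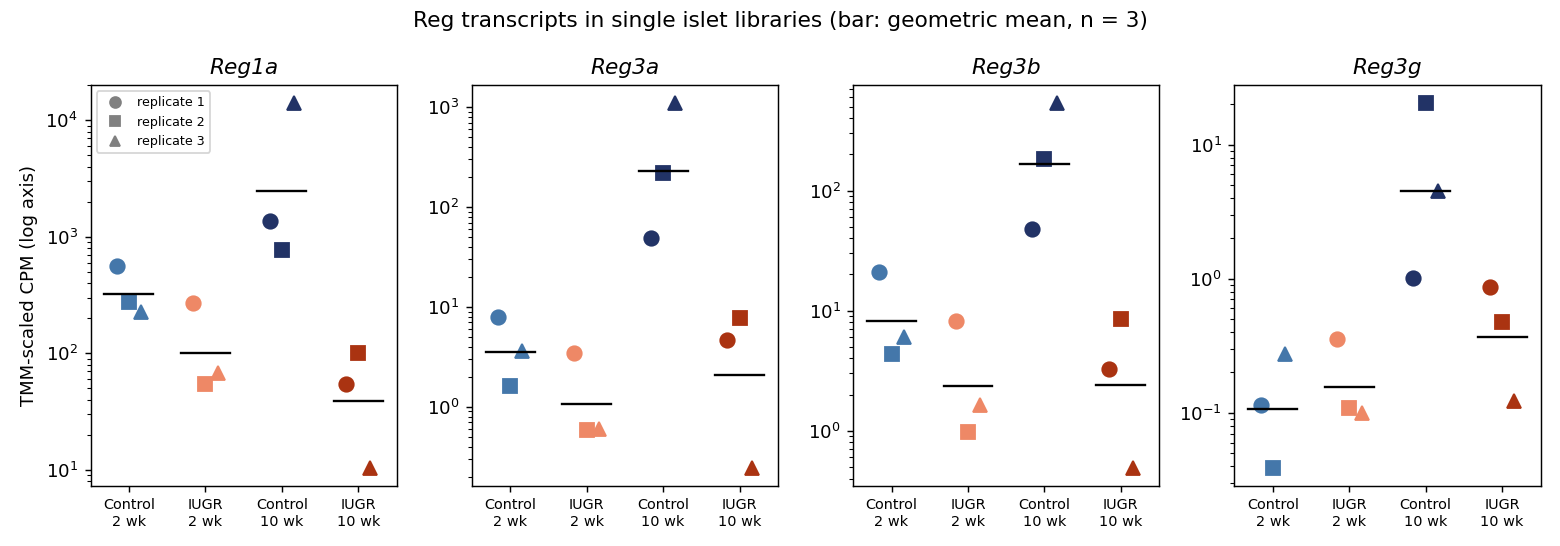
TMM-scaled CPM of Reg1a, Reg3a, Reg3b and Reg3g on log axes, 1 point per library and a bar at the geometric mean of the group, for control and IUGR islets at 2 and 10 weeks (n = 3 each). The 10-week controls lie above the 10-week IUGR libraries for each member, most narrowly for Reg3g (1.01 against 0.863 CPM), while the 2-week groups overlap.

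The first comparison asked how IUGR islets differ from control islets at 2 weeks. By edgeR's quasi-likelihood test with Benjamini-Hochberg adjustment over 20733 transcripts, 0 of the 4 tested members passed an adjusted p of 0.05, where 3.88% of all transcripts passed. None had an unadjusted p under 0.05 in edgeR either, and DESeq2 also called 0. Controls exceeded IUGR islets without overlap for 0 of 4 members, against 16.8% of all transcripts. The log2 fold change was -1.43 ± 1.09 (SE) for Reg1a with adjusted p = 0.404, -1.46 ± 1.24 for Reg3a with adjusted p = 0.454, and -1.52 ± 1.10 for Reg3b with adjusted p = 0.380. Reg3g was at 0.39 ± 1.305 with adjusted p = 0.869, and its sign turned when control replicate 2 or IUGR replicate 1 was left out. The other values moved from -0.94, -0.73 and -0.51 without control replicate 1 to -2.53, -2.85 and -2.98 without IUGR replicate 1, for Reg1a, Reg3a and Reg3b. All 4 signs turned with the acinar level as covariate, but the acinar shares of control and IUGR libraries did not overlap at this age. The acinar enzymes had a median of -2.73 in this comparison, with 3 of 28 lower and 0 higher.

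At 10 weeks all 4 tested members were lower in IUGR islets, where 27.8% of all transcripts passed in either direction and 15.5% passed as lower. The log2 fold change was -6.61 ± 1.37 (SE) for Reg1a (edgeR adjusted p = 0.0070), -6.76 ± 1.43 for Reg3a (adjusted p = 0.0076), -5.95 ± 1.29 for Reg3b (adjusted p = 0.0085) and -4.17 ± 1.03 for Reg3g (adjusted p = 0.0142). All 3 controls exceeded all 3 IUGR libraries for each of the 4, which held for 18.9% of all transcripts tested. Without control replicate 3, the library with the most Reg1a, the Reg1a change was -4.28 ± 0.93 and edgeR's adjusted p 0.0183. Reg3g missed the threshold without control replicate 2, at -2.47 with adjusted p = 0.0540, and without IUGR replicate 3, at -3.70 with adjusted p = 0.050003. The 28 tested acinar enzymes all fell in the same comparison, with a median log2 fold change of -5.77 against -0.01 over all transcripts.

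Whether the IUGR effect itself differed between the ages was tested as the difference between the age-specific effects. In edgeR 0 of 4 members passed, against 14.3% of all transcripts, although all 4 had an unadjusted p under 0.05. DESeq2 called all 4, where it called 20.8% of all transcripts. The difference was -5.17 ± 1.61 for Reg1a (adjusted p = 0.0543), -5.30 ± 1.75 for Reg3a (adjusted p = 0.0663), -4.43 ± 1.58 for Reg3b (adjusted p = 0.0839) and -4.56 ± 1.64 for Reg3g (adjusted p = 0.0848). Without 10-week control replicate 1, edgeR called all 4, against 23.6% of all transcripts. Without replicate 2 it called 1, Reg1a, against 12.3% of all transcripts, and the Reg3g difference was -2.81. Without replicate 3 the difference was -2.79 for Reg1a and -3.47 for Reg3a.

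From 2 to 10 weeks in control islets all 4 tested members rose, where 32.3% of all transcripts changed and 17.2% rose. The increase in log2 units was 6.72 ± 1.43 for Reg3a (edgeR adjusted p = 0.0053), 5.88 ± 1.16 for Reg3g (adjusted p = 0.0037), 4.62 ± 1.20 for Reg3b (adjusted p = 0.0143) and 3.93 ± 1.20 for Reg1a (adjusted p = 0.0291). All 3 of the 10-week controls exceeded all 3 of the 2-week controls for each member, which held for 20.6% of all transcripts. The Reg1a increase depended on single libraries: it was 1.62 ± 0.86 without 10-week control replicate 3 (adjusted p = 0.184), and it missed the threshold without any one of the 2-week controls (adjusted p = 0.0513 to 0.0942). Reg3b missed it without 2-week control replicate 2 (adjusted p = 0.0581), and Reg3a and Reg3g passed whichever library was left out. The acinar enzymes had a median of 0.79 in this comparison, with 4 of 28 higher and 0 lower, but they did not move alike. The 4 that passed were Cuzd1 (3.42), Pnlip (3.41), Gp2 (3.21) and Cela1 (2.80), and the lowest was Pnliprp1 (-1.16).

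In IUGR islets 0 of 4 members changed with age in edgeR or DESeq2, with none under an unadjusted p of 0.05, while 56.5% of all transcripts changed. The 10-week IUGR libraries exceeded the 2-week ones without overlap for 0 of 4 members, against 33.9% of all transcripts. Reg1a was at -1.24 ± 1.09 (adjusted p = 0.351), Reg3a at 1.42 ± 1.24 (adjusted p = 0.348), Reg3b at 0.19 ± 1.11 (adjusted p = 0.898) and Reg3g at 1.31 ± 1.14 (adjusted p = 0.344). Leaving out 1 library moved these values by over 1.5 times: without 2-week IUGR replicate 1 they were -0.14, 2.81, 1.65 and 2.17, and without 10-week IUGR replicate 2 Reg1a was at -2.01, Reg3a at 0.62 and Reg3b at -0.96. Reg1a was at -0.75 without 10-week IUGR replicate 3, and Reg3g at 0.63 without 10-week IUGR replicate 1. Reg3b, the value nearest 0, also turned to -0.26 and -0.15 without 2-week IUGR replicates 2 and 3. Over the same interval 18 of 28 acinar enzymes fell, with a median of -2.28. The IUGR and age comparisons share their libraries, so these values are set side by side and not combined.

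**Figure D2:**
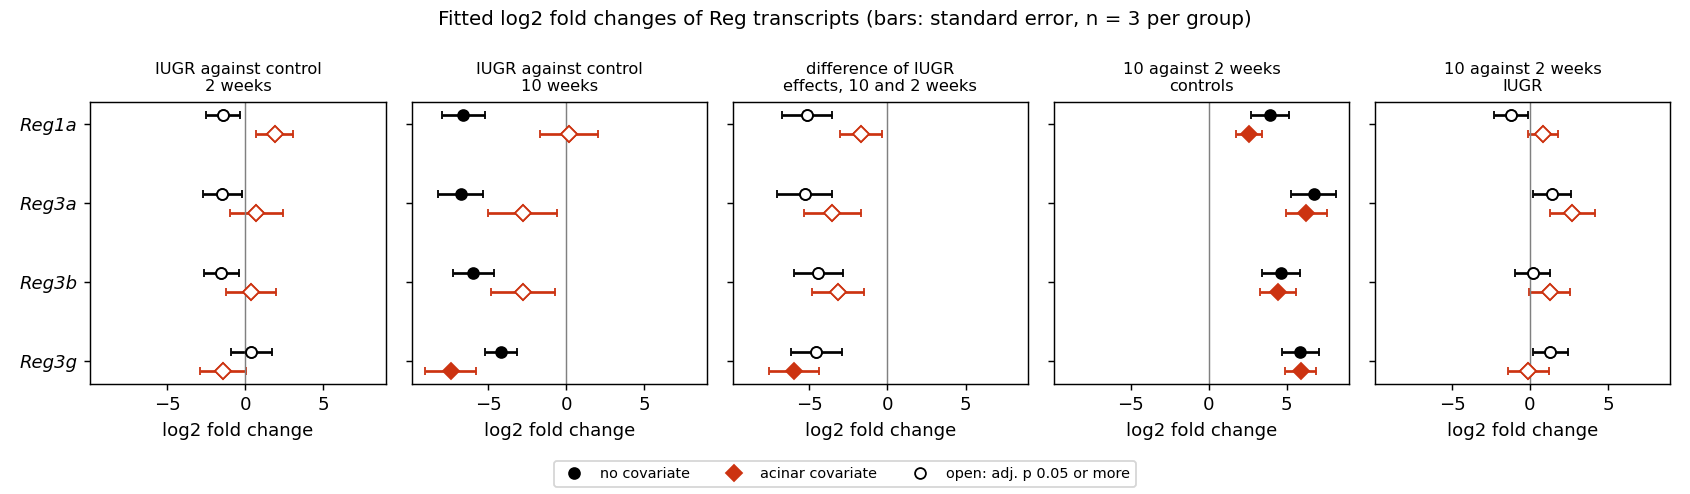
Log2 fold changes of the 4 tested members in each comparison, with SE bars, from the edgeR fit without (black circles) and with (red diamonds) the acinar covariate; open symbols missed an adjusted p of 0.05. Without the covariate, the IUGR change runs from -6.76 (Reg3a) to -4.17 (Reg3g) at 10 weeks and lies between -1.52 and 0.39 at 2 weeks.

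The members were then set against the acinar enzyme level, since acinar cells are a known source of Reg1a and the Reg3 proteins. Which cells made these transcripts in the libraries was not measured. Scaled to 1000000 acinar enzyme counts, Reg1a gave 1184 counts as the median of 2-week controls, 1728 in 2-week IUGR islets, 5957 in 10-week controls and 5102 in 10-week IUGR islets. On this scale the summed Reg counts differed between IUGR and control by 0.85 in log2 units at 2 weeks (two-sided exact permutation p = 0.4) and by -0.53 at 10 weeks (exact p = 0.6), where 3 against 3 libraries cannot go below 0.1. Over both ages the mean difference was 0.16 (exact permutation p = 0.84, smallest possible 0.005). These values rested on single libraries: the 10-week value was 0.10 without control replicate 3 and -1.47 without control replicate 1 (exact permutation p = 0.1, the smallest possible), the 2-week value was 0.12 without IUGR replicate 1, and the value over both ages ranged from -0.31 to 0.48.

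For single members per acinar count, the IUGR minus control difference at 10 weeks was -0.42 for Reg1a, -1.19 for Reg3a, -0.54 for Reg3b and 2.01 for Reg3g, with exact permutation p = 0.8, 0.5, 0.8 and 0.5 and an adjusted p of 0.8 for each, and the members were not tested against each other. At 2 weeks the acinar enzymes that form the denominator had a median log2 fold change of -2.73, while Reg3g itself did not pass in edgeR. Per acinar count Reg3g differed there by 3.01 (exact permutation p = 0.1, adjusted p = 0.4). The groups only just separated, at 1.4505 in control replicate 3 (14 counts) and 1.4516 in IUGR replicate 3 (6 counts), scaled to 1000000 acinar counts. Over both ages it differed by 2.51 (exact permutation p = 0.07, 0.28 after Benjamini-Hochberg adjustment over 4 members). The other 3 members differed over both ages by -0.18 to 0.22, with adjusted p = 0.89 for each.

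With age, the members per acinar count were higher in 10-week than in 2-week controls by 5.13 for Reg3a, 3.50 for Reg3b and 2.06 for Reg1a, each with exact permutation p = 0.1, the smallest possible, and no overlap. Scaled to 1000000 acinar counts, Reg3a had a median of 14.4 in 2-week controls and 1029 in 10-week controls. The acinar enzymes that form the denominator themselves ranged from -1.16 (Pnliprp1) to 3.42 (Cuzd1) with age in controls. Reg3g was higher by 4.38 in controls with overlapping groups (exact permutation p = 0.2). In IUGR islets the later minus earlier difference was 0.78 for Reg1a, 3.12 for Reg3a, 2.19 for Reg3b and 3.37 for Reg3g, with exact permutation p = 0.6, 0.2, 0.2 and 0.1. Only Reg3g among these 4 had no overlap between the IUGR ages.

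When the mean log2 level of the acinar enzymes entered the edgeR fit as a covariate, 1 of 4 members was called at 10 weeks, against 9.69% of all transcripts. Reg3g was at -7.41 ± 1.65 (adjusted p = 0.0250), whereas Reg1a was at 0.17 ± 1.85 (adjusted p = 0.962), Reg3a at -2.80 ± 2.22 (adjusted p = 0.426) and Reg3b at -2.77 ± 2.07 (adjusted p = 0.399). The sign for Reg3g here is opposite to that of its level per acinar count. For the difference between the ages the same fit also called 1 member, Reg3g, at -5.99 ± 1.58 (adjusted p = 0.0225), where 23.2% of all transcripts passed. At 10 weeks the lowest acinar share among controls was 13.9% and the highest among IUGR libraries 2.32%, so condition and acinar level cannot be told apart within that age. The same holds at 2 weeks, where the lowest control share was 21.7% and the highest IUGR share 9.39%. In the same fit all 4 members still rose with age in controls, against 37.1% of all transcripts, by 2.55 ± 0.83 for Reg1a (adjusted p = 0.0355), 6.25 ± 1.31 for Reg3a (adjusted p = 0.0063), 4.45 ± 1.15 for Reg3b (adjusted p = 0.0157) and 5.88 ± 1.001 for Reg3g (adjusted p = 0.0017).

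Across the 12 libraries, log2 CPM of Reg1a correlated with the mean log2 CPM of the acinar enzymes at Pearson r = 0.876 (permutation p adjusted over 4 members = 0.00044) and Spearman rho = 0.888 (adjusted p = 0.00136). For Reg3b r was 0.723 (permutation, adjusted p = 0.0151) and rho 0.706 (0.0246), for Reg3a r was 0.635 (0.0341) and rho 0.615 (0.048), and for Reg3g r was 0.252 (0.436) and rho 0.154 (0.637). Against the log2 acinar share instead, Reg3a missed the threshold, with r = 0.572 (permutation, adjusted p = 0.0665). Leaving out the 2 libraries farthest from the median acinar level, 10-week IUGR replicate 3 and 10-week control replicate 3, gave r of 0.821 for Reg1a, 0.504 for Reg3b, 0.346 for Reg3a and -0.0389 for Reg3g. The relations of Reg3a and Reg3b thus rested in part on those libraries. The pooled permutations ignored the groups, so their p-values also take in differences between groups. Within groups, the deviations from the group means gave r = 0.706 for Reg1a (exact permutation p = 0.0795), 0.418 for Reg3b (0.289), 0.410 for Reg3a (0.333) and -0.360 for Reg3g (0.544).

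**Figure D3:**
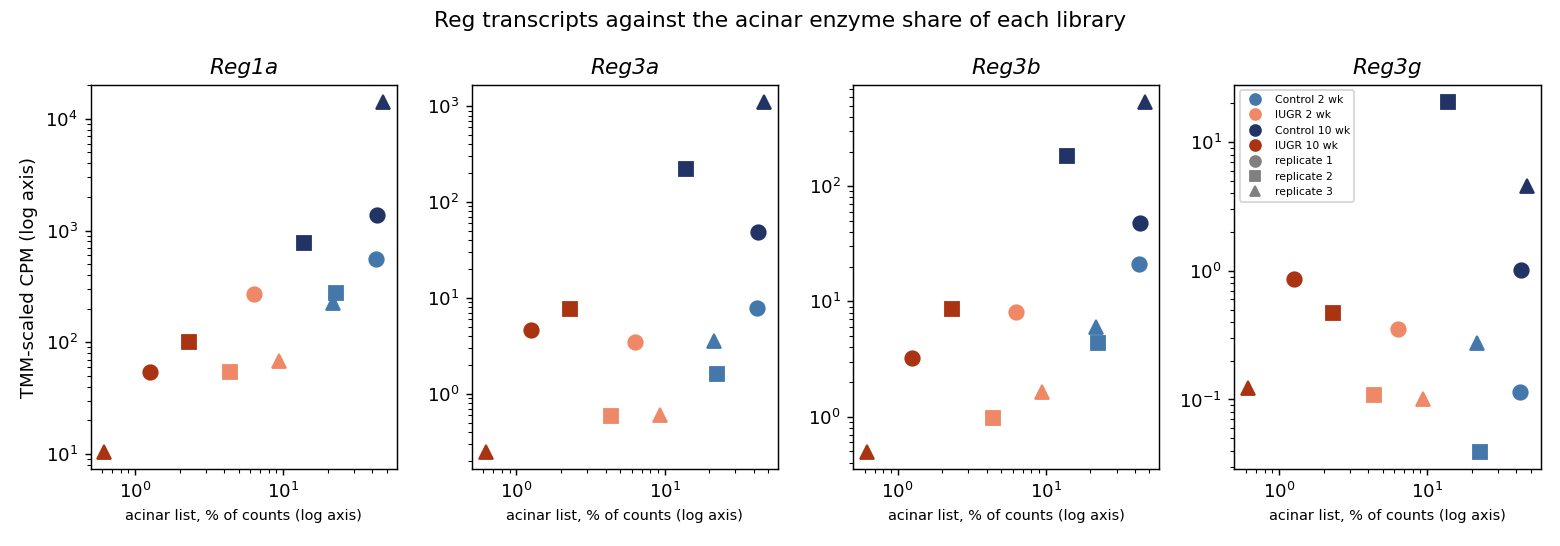
TMM-scaled CPM of each tested member against the acinar enzyme share of counts in percent, both on log axes, 1 point per library, coloured by group. Reg1a follows the log2 acinar share most closely (r = 0.837) and Reg3g least (r = 0.203).

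The make-up of the family also shifted with age. Reg1a took 95.05% to 97.9% of all Reg counts in the 6 libraries of 2 weeks and 64.6% to 93.3% in the 6 libraries of 10 weeks, without overlap. The Reg3 genes together took 4.95%, 2.11% and 4.21% in 2-week controls and 4.23%, 3.01% and 3.33% in 2-week IUGR islets. At 10 weeks their share was 6.66%, 35.4% and 10.4% in controls and 13.9%, 14.2% and 7.64% in IUGR islets. The share was thus above the 2-week range in both conditions, including IUGR islets, where no single member passed the test for age. This split was noticed after the values were seen and was not tested. Per 100 Reg1a counts, Reg3a gave 0.578 to 1.60 counts at 2 weeks and 2.36 to 28.5 at 10 weeks, without overlap, while the ranges of Reg3b, 1.56 to 3.76 and 3.50 to 23.6, overlapped. Reads shared between similar Reg copies could move counts between members, and how such reads were counted is not given here.

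**Figure D4:**
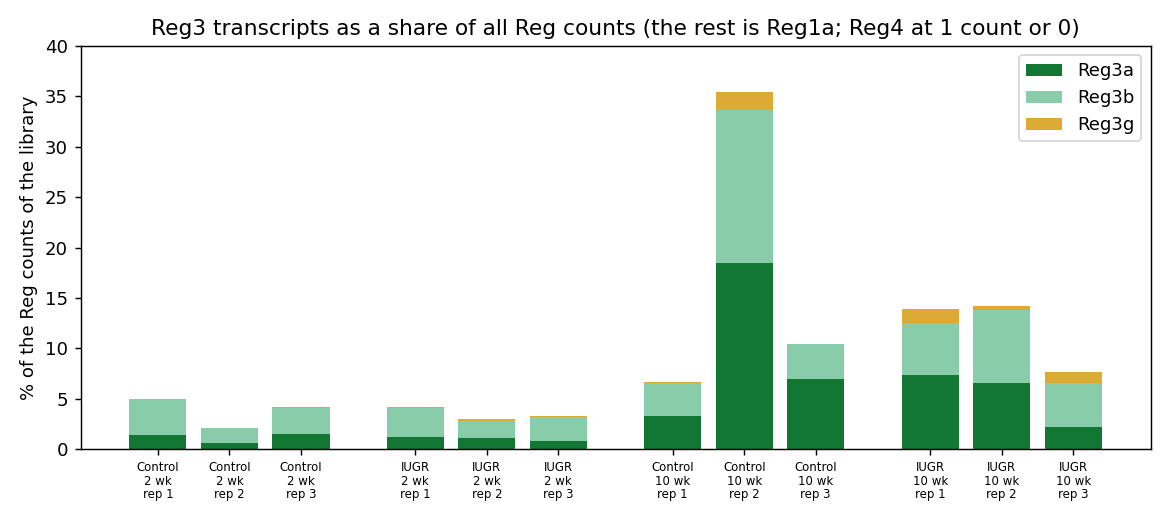
Stacked bars of the share of all Reg counts taken by Reg3a, Reg3b and Reg3g in each library, in percent from 0, with Reg1a making up nearly all of the rest. The stack stays at or under 4.95% in the 2-week libraries and reaches 35.4% in 10-week control replicate 2.

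Among the members, log2 CPM over the 12 libraries was closest for Reg3a and Reg3b (r = 0.983), and deviations from the group means gave 0.970, so that the pair moved together within groups too. Reg1a went with Reg3b at 0.935 and with Reg3a at 0.893, or 0.854 and 0.865 within groups. Reg3g went with Reg3a at 0.862, with Reg3b at 0.800 and with Reg1a at 0.583, or 0.635, 0.588 and 0.191 within groups. These correlations share libraries and depth and are given as descriptions.

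Few transcripts varied as much between libraries of 1 group. The within-group SD of log2 CPM was 1.57 for Reg1a, 1.92 for Reg3a, 1.66 for Reg3b and 1.39 for Reg3g, against a median of 0.177 over 15611 transcripts with a mean log2 CPM of at least 1, a level that Reg3g itself did not reach. The 4 members lay at percentiles 99.76 to 99.94 of those transcripts. The acinar enzymes had a median SD of 1.06.

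The genes most like each member over the 12 libraries were picked by Pearson r of log2 CPM. For Reg1a they were Cd82 and Gp2, both at 0.935, then Reg3b, Amy2a3 (an amylase) at 0.930 and Cela1 (an elastase) at 0.923. For Reg3a, besides Reg3b and Reg1a, they were Cst3 (cystatin C) at 0.923, Cpamd8 at 0.882 and Nr3c2 (the mineralocorticoid receptor) at 0.871, and for Reg3b they were Cst3 at 0.919, Gp2 at 0.897 and Cela1 at 0.869. For Reg3g they were the class I histocompatibility genes RT1-CE4 at 0.904, RT1-T24-3 at 0.903 and RT1-CE5 at 0.879, with Tapbp (tapasin) at 0.894 and Pycard (the inflammasome adaptor ASC) at 0.879. RT1-CE4 stood at 38.8, 122 and 69.7 CPM in 10-week controls and at 12.5 to 38.2 CPM in the other 9 libraries, and its highest library, 10-week control replicate 2, was also the highest for Reg3g.

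Of 26 tested genes for the receptor and for the signals known to induce Reg genes, 0 passed at 2 weeks in edgeR, where 3.88% of all transcripts passed, and 11 were lower in IUGR islets at 10 weeks, where 15.5% of all transcripts were lower. Their median log2 fold change at 10 weeks was -0.49, against -0.01 over all transcripts. Extl3, the receptor, stood at 57.7, 35.5 and 64.3 CPM in 10-week controls and at 35.1, 27.1 and 30.2 CPM in IUGR islets. Its log2 fold change was -0.77 ± 0.21 (edgeR adjusted p = 0.0196), and the groups were separated narrowly. The cytokine gene Il6 fell too, with -2.62 ± 0.75 (adjusted p = 0.0253), and so did Socs3, a feedback target of Stat3, with -1.78 ± 0.46 (adjusted p = 0.0175). Stat3 itself was at -0.13 ± 0.10 in that comparison (adjusted p = 0.344) and rose with age in controls by 0.43 ± 0.10 (adjusted p = 0.0066), 1 of 4 genes of the list that rose there while 2 fell, against 32.3% of all transcripts that changed. With age in IUGR islets 13 of these 26 fell and 1 rose, a share near the 56.5% of all transcripts that changed there.

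Of 16 tested genes of the acinar stress and pancreatitis response, 1 was lower at 2 weeks in IUGR islets, where 3.88% of all transcripts passed. At 10 weeks 10 were lower and 1 higher, where 27.8% of all transcripts passed, and their median log2 fold change was -1.20. Nupr1, a stress gene induced in acinar cells by pancreatitis, stood at 186, 123 and 423 CPM in 10-week controls and at 11.4, 10.3 and 14.4 CPM in 10-week IUGR islets, far apart. Its log2 fold change was -4.34 ± 0.45 (edgeR adjusted p = 0.00054) at 10 weeks and -1.93 ± 0.41 (adjusted p = 0.0435) at 2 weeks. With age in controls it rose by 2.17 ± 0.41 (adjusted p = 0.0029), as the tested Reg members did. The list as a whole did not: 2 of its 16 genes rose there and 0 fell, with a median of 0.05, where 17.2% of all transcripts rose. Lcn2 (lipocalin) fell at 10 weeks, with -2.97 ± 0.69 (adjusted p = 0.0113). Of 14 tested acinar transcription factors and secretory genes, 11 fell at 10 weeks, and of 5 tested soluble lectins outside the family 2 fell, where 15.5% of all transcripts fell.

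Some markers of other cell types differed at 10 weeks as well, where 15.5% of all transcripts were lower, and their part in the Reg result was not tested. Lower in IUGR islets were 6 of 7 mesenchymal markers, with summed levels of 784 to 1650 CPM in controls and 312 to 399 CPM in IUGR islets, and 5 of 6 endothelial markers, with 452 to 786 and 280 to 377 CPM. Of the others, 3 of 10 macrophage markers were lower, with overlapping sums of 74.4 to 225 and 76.9 to 178 CPM. So were 2 of 4 tested intestinal markers, Lgr5 (-2.30) and Alpi (-2.34), while Vil1 (0.26) and Tff3 (0.59) did not pass. The summed intestinal level did not fall, with 55.8 to 81.1 CPM in controls and 80.6 to 86.3 CPM in IUGR islets. The 2 of 12 ductal markers that were lower are a share near that of all transcripts. The endocrine markers went the other way, with 5 of 10 higher and sums of 100511 to 146955 CPM in controls and 191084 to 201747 CPM in IUGR islets. In a fit added after the data were seen, which left out the 2 controls above 40% acinar share, the log2 differences of the IUGR islets from the remaining control, replicate 2, were -3.78 for Reg1a, -5.70 for Reg3a, -5.45 for Reg3b and -5.38 for Reg3g. That control arm is 1 library, the highest of all for Reg3g, and is assumed to vary like the other groups, so these values are given as a description.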

How the data were processed

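The deposited table holds whole-number read counts per Ensembl transcript with gene symbols, which the authors made from stranded total RNA libraries. TopHat2 2.0.9, bedtools and the builds rn5 and mm9 are named in the submitters' processing notes, with no role given, and the counting rule, its use of strand and its handling of reads with several matches were not stated. Libraries held between 30396759 and 64201627 counts, and groups came from the labels. In R 4.3.3, edgeR 4.0.16 was run on all 30309 transcripts: filterByExpr (minimum count 10) kept 20733, counts were TMM-scaled, and 1 robust quasi-likelihood fit of 4 groups gave every contrast, with Benjamini-Hochberg adjustment over all transcripts kept and a threshold of 0.05. SE values are the log2 fold change divided by the square root of F. The same steps were run on simulated counts with 1 spread for all transcripts and without the differences in acinar share seen here. That run cannot show how they perform on transcripts as variable as the Reg members. Levels per acinar count are log2 of member over summed acinar enzyme counts, each plus 0.5, tested by exact permutation of libraries in Python 3.11.15. Correlations used log2 CPM with a prior count of 2 and 100000 resamples. Named genes were all 5 members, the 5 symbols most like each member (1 transcript per symbol, mean log2 CPM of at least 1), and up to 4 genes of a list with the smallest p, with Extl3, Il6, Socs3, Lcn2 and, at 10 weeks, Stat3 chosen after their values were seen. Members and lists were chosen with earlier results of these data known. Alternatives were DESeq2 1.42.0, other scaling, no filter, the 6 libraries of a comparison alone, a replicate block, the acinar level as covariate, each library left out and, added after the data were seen, both acinar-rich 10-week controls left out. Protein sequences were not used here.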

Additional observations from a re-analysis of the deposited data

How the results depend on the processing

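Of the recomputed counts of called members, 97 stayed within 1.5 times the reported count and 7 did not. This tally is coarse. At 2 weeks, for the difference between ages and for age in IUGR islets the reported count was 0, so staying means 0 again. Elsewhere a fall from 4 to 3 was also taken as staying. With the acinar level as covariate the number called was 1 at 10 weeks and 1 for the difference between ages. For that difference, where edgeR called 0, DESeq2 called 4, against 20.8% of all transcripts. The fit without both 10-week controls above 40% acinar share has a 10-week control arm of 1 library assumed to vary like the other groups, so its count is not given. Leaving out 1 library at a time gave 3 to 4 called members at 10 weeks, 0 to 4 for the difference between ages, 2 to 4 for age in controls and 0 to 0 for the other comparisons. The 2 for age in controls came without 2-week control replicate 2. The covariate turned signs at 2 weeks, where acinar shares of the conditions did not overlap, to 1.89 for Reg1a, 0.73 for Reg3a, 0.40 for Reg3b and -1.42 for Reg3g. It also turned Reg1a at 10 weeks (0.17) and, for age in IUGR islets, Reg1a (0.83) and Reg3g (-0.11). The cause was not tested. Single libraries turned 2 unpassed values: Reg3g at 2 weeks to -0.09 without control replicate 2 and -0.46 without IUGR replicate 1 (range -0.46 to 1.40), and Reg3b for age in IUGR islets to -0.26 and -0.15 without 2-week IUGR replicates 2 and 3 and to -0.96 without 10-week IUGR replicate 2 (range -0.96 to 1.65). Summed Reg counts per acinar count differed by 0.12 to 1.42 at 2 weeks, by -1.47 to 0.10 at 10 weeks and by -0.31 to 0.48 over both ages when 1 library was left out, the 0.10 coming without 10-week control replicate 3 and the -0.31 and -0.20 without 10-week control replicate 1 and 2-week IUGR replicate 1. Over both ages it was -0.14 without both acinar-rich controls. The Reg3g correlation with the acinar level turned to -0.36 within groups. Same-numbered libraries deviated together in some pairs and not in others (r from -0.22 to 0.54), against -0.59 to 0.42 for libraries of different numbers. Nothing in the labels links equal numbers, so they were not taken as pairs. The fit with a replicate block called 0 members at 2 weeks, 4 at 10 weeks and 0 for the difference. It called 3 for age in controls, where Reg1a missed at an adjusted p of 0.0613, and 0 for age in IUGR islets. Reg1a for age in controls also missed without the filter on low counts (adjusted p = 0.0604) and with the 6 libraries alone (0.0625), as did Reg3g at 10 weeks with the 6 libraries alone (0.0553). Depth limits Reg3g, with 2 to 25 counts in each 2-week library, and Reg4. Adjusted p-values here are edgeR's.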
